A study of Mus musculus with 4 samples.

Results

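Intergenic long noncoding RNA (lincRNA) genes lie between protein-coding genes and have promoters of their own, apart from any coding promoter. They were taken here as the GENCODE vM21 genes of type lincRNA on chromosomes 1 to 19 with a transcription start site (TSS) more than 5 kb from every protein-coding TSS. There were 4536 such genes, with 6241 starts, among 51229 annotated genes on these chromosomes. Accessibility of their promoters was read from ATAC-seq of aortic nuclei of P60 mice. *Col3a1*+/+ mice (control) were compared with *Col3a1*G938D/+ mice (VEDS), which carry a glycine substitution in type III collagen and serve as a model of vascular Ehlers-Danlos syndrome. All mice were untreated and on a C57BL/6J background, and each of the 4 libraries, 1 for each genotype and sex, pooled aortas of 2 mice.

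Long noncoding RNAs are transcribed by RNA polymerase II, spliced and capped like mRNA, but made in smaller amounts and in fewer cell types. Some act in the nucleus, as *Malat1* and *Neat1* do in nuclear bodies, some regulate the genes beside them, and some are mainly precursors of small nucleolar RNAs or microRNAs. In the vessel wall, several are tied to the contractile state of smooth muscle cells. An accessible promoter usually accompanies transcription but does not measure it.

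The comparison rested on the control female list, with 21176 peaks, and the VEDS male list, with 41444. These libraries differ in genotype and in sex, which cannot be told apart, and each stands for 1 pool of mice, so no test between genotypes was possible. The control male and VEDS female lists held 1236 and 504 peaks. All 8 smooth muscle markers (*Myh11*, *Acta2*, *Tagln* and others) had a promoter peak in both long lists and none had one in a short list. Endothelial markers had a peak at 0 of 6 promoters in the control female list and 3 of 6 in the VEDS male list. Fibroblast markers had one at 3 of 6 promoters in both long lists. Markers of adipocytes, striated muscle and neural cells had none in the control female list. In the VEDS male list they had 1 of 5 (*Pparg*), 1 of 5 (*Ckm*) and 1 of 4 (*Snap25*). A promoter with a peak within 1 kb of a TSS is called open below, and one without a peak was not taken as closed.

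Intergenic lincRNA promoters were seldom open. In the control female list 256 of 4536 genes (5.64%, 95% Wilson interval 5.01% to 6.35%) had a peak within 1 kb, against 23.1% of all genes on the same chromosomes. In the VEDS male list 496 genes (10.9%, 10.1% to 11.9%) had one, against 29.6% of all genes. Both lists opened 249 of them (5.49%, 4.86% to 6.19%), against 22.9% of all genes. The intervals cover counting error only. In each list the share was under the background.

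LincRNA genes beside a coding promoter were open more often than intergenic ones. Among the 673 lincRNA genes whose every TSS lay within 5 kb of a coding TSS, 35.2% were open in the control female list and 44.3% in the VEDS male list, against 46.1% and 56.8% of protein-coding genes. Where the coding promoter's own peak lay within 1 kb of such a lincRNA start, it counted for the lincRNA gene too. The higher share is therefore partly built into the definition. Other long noncoding RNA types farther than 5 kb from coding starts were open in 6.35% and 11.9%, and the Wilson intervals overlapped those of the intergenic lincRNA genes in both lists. Points 10 kb upstream of the lincRNA starts had a peak in only 1.38% and 3.09%, and processed pseudogenes more than 5 kb from coding starts in 0.667% and 1.61%. The annotated lincRNA starts therefore had peaks more often than nearby or pseudogene positions, with intervals that did not overlap. A lincRNA gene could have several starts, whereas each shifted position was a single point. With only the gene's own 5′ end counted, the lincRNA shares were 5.22% and 10.2%.

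**Figure D1:**
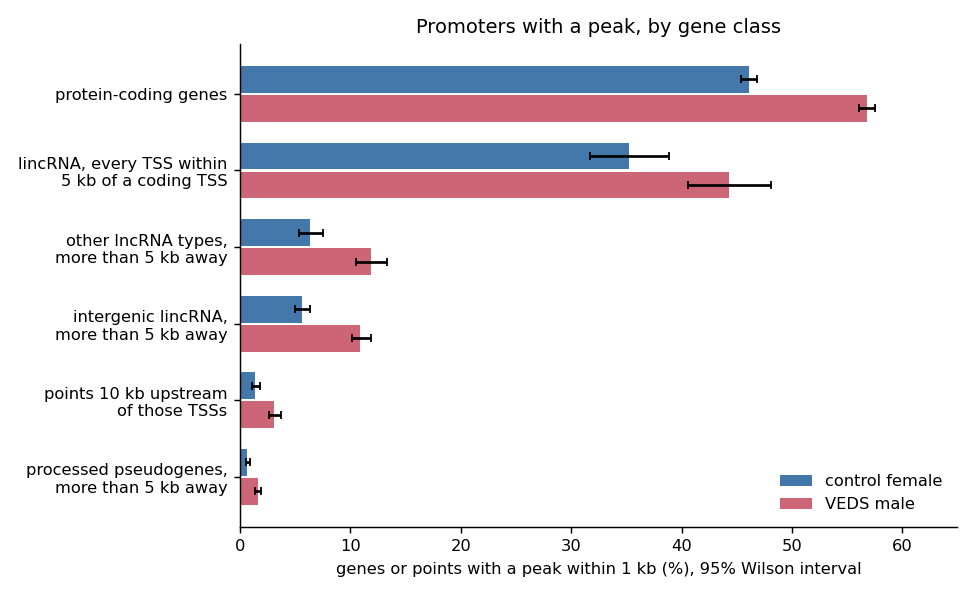
Share of genes or points with a peak within 1 kb (x axis, percent) for 6 classes of position in the control female (blue) and VEDS male (red) lists. Bars start at 0 and whiskers are 95% Wilson intervals. Intergenic lincRNA genes, at 5.64% and 10.9%, sit between the points 10 kb upstream of them (1.38% and 3.09%) and the lincRNA genes beside coding starts (35.2% and 44.3%).

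The open promoters differed from the rest in their content of CpG dinucleotides. The windows below run from 250 bases before to 50 bases from the TSS on, 5′ to 3′ on the gene's strand, read from the RefSeq GRCm38.p6 genome, with each CpG in capitals. The set shows open promoters rich in CpG (*1700020I14Rik*, *Snhg6*), a promoter of middle content (*Gm12295*), open promoters poor in CpG (*Trp53cor1*, *Gm5444*), and *Hotair*, which had no peak in any list.
1700020I14Rik: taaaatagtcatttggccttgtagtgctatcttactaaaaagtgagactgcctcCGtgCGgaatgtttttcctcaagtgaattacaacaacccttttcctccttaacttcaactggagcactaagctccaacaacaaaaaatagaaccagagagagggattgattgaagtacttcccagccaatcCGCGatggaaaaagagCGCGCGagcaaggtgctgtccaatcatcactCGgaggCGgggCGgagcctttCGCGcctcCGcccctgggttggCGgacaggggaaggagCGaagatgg
Snhg6: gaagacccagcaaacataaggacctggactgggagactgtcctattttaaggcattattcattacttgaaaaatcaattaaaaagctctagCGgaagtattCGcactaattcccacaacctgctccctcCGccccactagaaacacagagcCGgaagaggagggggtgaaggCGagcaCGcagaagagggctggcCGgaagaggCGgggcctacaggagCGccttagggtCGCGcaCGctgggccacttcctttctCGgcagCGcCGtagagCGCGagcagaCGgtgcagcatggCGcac
Trp53cor1: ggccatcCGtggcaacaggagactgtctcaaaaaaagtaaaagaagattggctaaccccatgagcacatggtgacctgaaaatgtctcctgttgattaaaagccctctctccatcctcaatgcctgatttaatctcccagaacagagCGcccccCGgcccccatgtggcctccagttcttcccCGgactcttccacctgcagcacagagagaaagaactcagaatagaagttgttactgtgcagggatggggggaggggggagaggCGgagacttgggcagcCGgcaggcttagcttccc
Gm5444: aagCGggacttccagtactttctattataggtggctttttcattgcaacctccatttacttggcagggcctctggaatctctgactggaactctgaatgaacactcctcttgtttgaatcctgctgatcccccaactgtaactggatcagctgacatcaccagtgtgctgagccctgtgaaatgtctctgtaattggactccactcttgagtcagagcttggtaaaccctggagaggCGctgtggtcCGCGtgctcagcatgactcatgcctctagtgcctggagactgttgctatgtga
Gm12295: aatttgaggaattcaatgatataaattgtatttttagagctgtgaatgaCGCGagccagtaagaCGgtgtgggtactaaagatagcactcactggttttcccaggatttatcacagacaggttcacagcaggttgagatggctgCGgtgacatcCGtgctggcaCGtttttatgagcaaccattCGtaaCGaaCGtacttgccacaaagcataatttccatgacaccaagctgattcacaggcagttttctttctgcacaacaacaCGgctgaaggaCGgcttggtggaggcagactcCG
Hotair: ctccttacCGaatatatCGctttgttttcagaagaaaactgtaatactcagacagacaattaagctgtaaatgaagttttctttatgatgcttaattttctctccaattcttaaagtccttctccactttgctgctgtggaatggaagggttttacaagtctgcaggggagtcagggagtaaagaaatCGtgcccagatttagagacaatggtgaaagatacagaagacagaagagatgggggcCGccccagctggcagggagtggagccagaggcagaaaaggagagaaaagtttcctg

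These windows lie at chr2:119594047-119594346 (*1700020I14Rik*, plus strand), chr1:9944069-9944368 (*Snhg6*, minus strand), chr17:29079130-29079429 (*Trp53cor1*, minus strand), chr13:4771401-4771700 (*Gm5444*, plus strand), chr11:65365749-65366048 (*Gm12295*, minus strand) and chr15:102947681-102947980 (*Hotair*, minus strand). The *1700020I14Rik* and *Snhg6* windows held 15 and 19 CpG, against 4 in *Gm5444* and 4 in *Hotair*. *Gm5444* nevertheless had one of the strongest peaks of all intergenic lincRNA genes in both lists, and its window holds 2 matches to the AP-1 site TGACTCA, counting both strands.

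CpG content was measured within 500 bases of the TSS that lies farthest upstream, as the observed to expected CpG ratio. A ratio of at least 0.6, common at housekeeping promoters, was found at 3.04% of intergenic lincRNA genes but at 47.2% of protein-coding genes. Of these CpG-rich promoters, 44.2% (36.2% to 52.5%) were open in the control female list and 52.9% (44.6% to 61.0%) in the VEDS male list. Among the 3294 promoters with a ratio under 0.3, 3.37% (2.81% to 4.04%) and 7.59% (6.73% to 8.54%) were open. Between these limits the shares were 7.61% and 15.7%. Both *Hotair*, with no peak and a ratio of 0.332, and *Gm12295*, open in both lists with a ratio of 0.350, fell there.

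In each CpG class, lincRNA promoters were open less often than coding promoters. Protein-coding genes were open in 74.7% and 86.8% at a ratio of at least 0.6, and in 9.43% and 15.1% under 0.3. Weighted to the CpG classes of the intergenic lincRNA genes, the coding share would be 18.4% in the control female list and 26.6% in the VEDS male list, above the measured 5.64% and 10.9%. The intervals of the 2 kinds of gene did not overlap in any class of either list. Coding genes can have many annotated starts, and with only the gene's own 5′ end counted their overall shares were 42.2% and 52.4%.

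**Figure D2:**
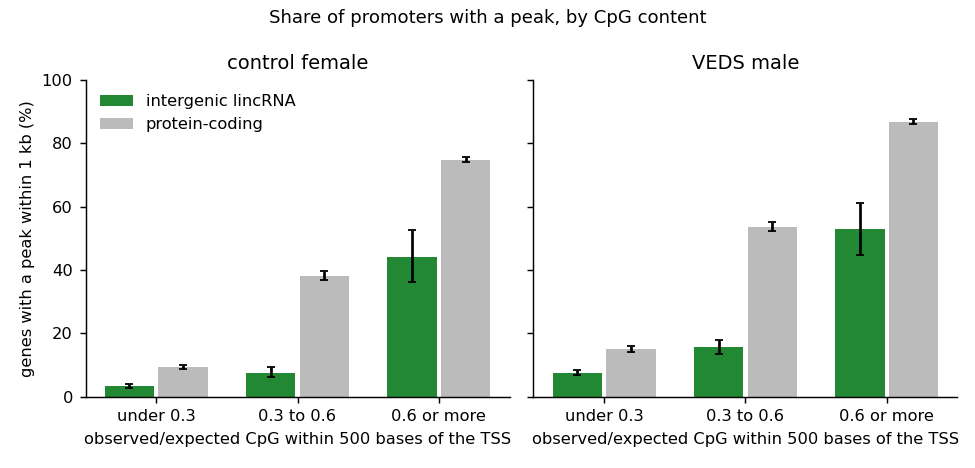
Share of genes with a peak within 1 kb (y axis, percent, from 0) by observed to expected CpG ratio within 500 bases of the TSS, for intergenic lincRNA genes (green) and protein-coding genes (gray), with 95% Wilson intervals. In both lists the share rises with CpG content in both kinds of gene, and lincRNA genes stay lower in each class (44.2% against 74.7% in the CpG-rich class of the control female list).

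The promoters open in both lists and those open in the VEDS male list only were not alike. A CpG ratio of at least 0.6 was found at 24.5% of the 249 open in both, at 4.86% of the 247 open in the VEDS male list only and at 1.61% of the 4033 open in neither. The GC box GGGCGG, a site for Sp factors, was in 29.3%, 15.8% and 6.42% of these windows, on either strand, and in 43.7% of all coding promoters. The ETS core CCGGAA was in 18.5%, 11.3% and 6.12%, against 17.9% of coding promoters. Both motifs contain CpG. Within promoters of a ratio under 0.6 the GC box was in 17.0% of those open in both and 6.0% of those open in neither. CpG content was not matched within that group, and its part in the difference was not tested.

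The AP-1 site TGACTCA was in 8.43% of windows open in both lists, 13.4% of those open in the VEDS male list only and 6.65% of those open in neither, against 4.52% of coding promoters. TATAAA was in 12.9%, 12.6% and 17.8%, and in 12.7% of coding promoters. The CCAAT box was in 37.8%, 36.0% and 38.1%, against 38.6% of coding promoters. The TEAD core GGAATG, which can overlap the ETS core, was in 18.9%, 18.2% and 17.9%, against 13.5% of coding promoters. The CArG box of serum response factor, which drives smooth muscle contractile genes, was in 2.41%, 0.810% and 1.86%, and the MEF2 site in 2.81%, 4.45% and 3.89%, against 1.40% and 2.88% of coding promoters. TGACGTCA, the cyclic AMP response element, was in 2.81%, 1.62% and 0.595% of these windows, and in 2.43% of coding promoters. The NRF1 site GCGCATGC was in 1.20%, 2.43% and 0.744%, and the CTCF core in 1.20%, 0.405% and 0.545%, against 3.45% and 1.16% of coding promoters. TGACGTCA and the NRF1 site also contain CpG. Under a ratio of 0.6, TGACGTCA was in 1.06% (0.292% to 3.80%) of promoters open in both lists. Of those open in neither it was in 0.504% (0.327% to 0.777%), and the intervals overlapped. A match is a run of letters in this window and was not tested for binding.

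Peaks at intergenic lincRNA promoters were weaker than those at coding promoters and less well placed on the start. Ranked by −log10 q within the list, with 0 for the strongest peak and 100 for the weakest, their median rank was 50.1 in the control female list and 46.4 in the VEDS male list, that of an average peak. Peaks within 1 kb of a coding TSS had median ranks of 32.1 and 26.6. The median number of fragments at the summit was 13 and 22 at lincRNA promoters and 18 and 35 at coding promoters. The TSS itself lay inside the peak at 41.4% and 44.4% of open lincRNA genes, against 82.4% and 85.6% of open coding genes. All annotated starts of a coding gene were used, and the number of starts was not matched between lincRNA and coding genes. The same limit applies to the summit distances below.

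The summit lay within 250 bases of a TSS at 56.2% of open lincRNA genes in the control female list and 51.0% in the VEDS male list, against 87.5% and 85.8% of open coding genes. More summits were upstream than downstream, 63.7% and 61.3% for lincRNA genes and 78.2% and 77.3% for coding genes. The open genes had 251 and 484 distinct peaks, since 10 and 24 genes shared a peak with another. More than 50% of the bases of the peak were masked as repeats at 4 of 256 control female and 13 of 496 VEDS male genes. The share over all peaks of each list was not set beside these counts, so nothing particular to lincRNA peaks was read from them.

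**Figure D3:**
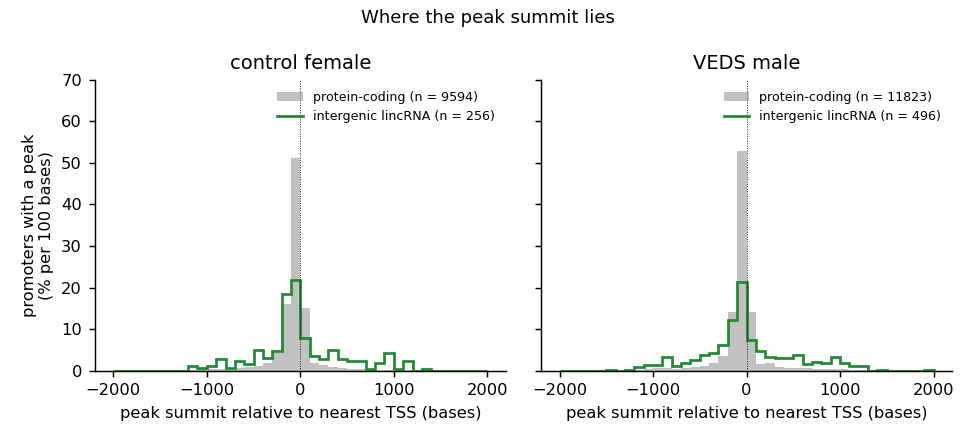
Distance of the peak summit from the nearest TSS of the gene (x axis, bases, negative upstream) for open lincRNA genes (green line) and open protein-coding genes (gray), as percent of promoters per 100 bases. Both kinds peak just upstream of the start, but lincRNA summits spread more widely, with 56.2% and 51.0% within 250 bases against 87.5% and 85.8%. The number of starts per gene was not matched between the kinds.

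Of the 256 genes open in the control female list, 97.3% were also open in the VEDS male list, and of the 496 open in the VEDS male list 50.2% were open in the control female list. For protein-coding genes these shares were 99.6% and 80.8%. Among all genes, 11830 were open in the control female list, 15189 in the VEDS male list and 11751 in both. At 240 of the 249 genes open in both, the 2 peaks overlapped. The VEDS male list is longer, and the 247 genes open in it alone had weaker peaks, with a median rank of 67.0 against 26.4 for the genes open in both. When only the 21176 strongest VEDS male peaks were kept, as many as the control female list holds, 280 genes (6.17%) were open, against 256 (5.64%), and of the 247 only 72 had a peak among them.

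**Figure D4:**
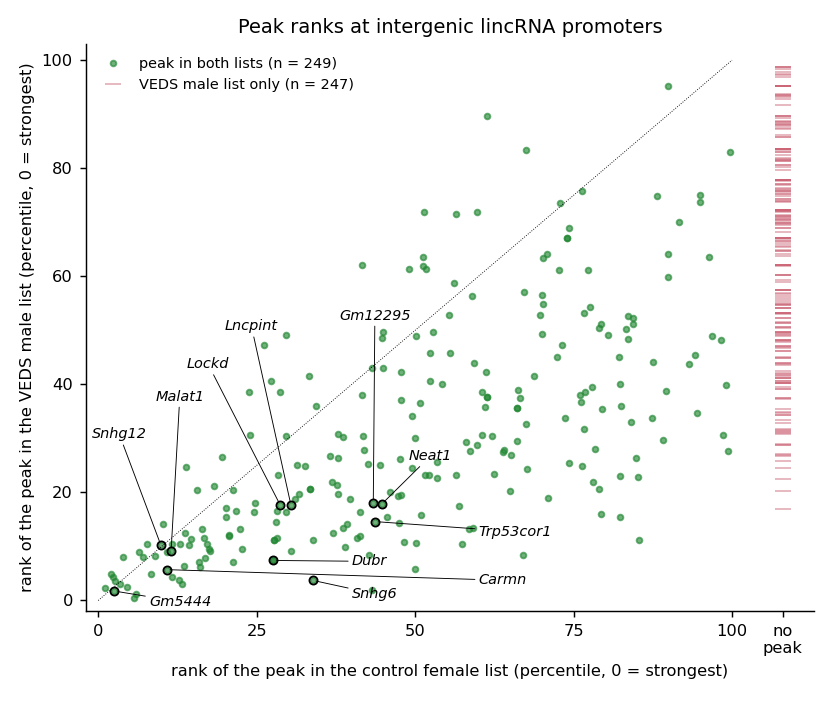
Percentile rank of the peak in the control female list (x axis) and VEDS male list (y axis), 0 being the strongest, for the 249 intergenic lincRNA genes open in both lists (green). Red dashes at the right are the 247 genes open in the VEDS male list only, with a median rank of 67.0, and the dotted line marks equal ranks, below which 211 of the 249 genes lie.

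Over the 249 genes the ranks went together across the lists, with a Spearman rho of 0.70, given as a description, since the points of a list share its library and both lists share the genome sequence. A better rank in the VEDS male list was found at 211 of 249 genes, in a list that holds more weak peaks. The strongest were mostly little-studied genes. The 10 genes with the best ranks in both lists, by the worse of their 2 ranks, were *1700096K18Rik*, *Gm5444*, *1700020I14Rik*, *B930059L03Rik*, *Gm10010*, *D730045B01Rik*, *Gm20732*, *Gm5165*, *5430416N02Rik* and *4930519A11Rik*.

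*1700096K18Rik* had the best pair of ranks, 1.09 in the control female list (fold enrichment 16.5 over the local background, 43 fragments) and 2.40 in the VEDS male list (14.4, 89 fragments). *Gm5444* followed with ranks of 2.55 and 1.75 and fold enrichments of 13.7 and 16.7, and the summits lay 20 and 6 bases upstream of its start. Both were also open in the VEDS female list. *Gm5165* had the strongest peak of any intergenic lincRNA gene in the VEDS male list, at rank 0.437 with a fold enrichment of 25.3, and rank 5.70 with 14.9 in the control female list. *1700020I14Rik* had ranks of 3.48 and 3.12 with fold enrichments of 15.0 and 18.1.

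The strongest were not all rich in CpG. *Gm20732*, which contains *Mir30d*, had a CpG ratio of 1.07 and ranks of 2.02 and 4.85. *Gm5444* had a ratio of only 0.231, and the start where it was measured lay inside both of its peaks. *4930519A11Rik*, whose nearest coding gene is *Mycn* at a distance of 37896 bases, had ranks of 7.02 and 8.03. Its ratio of 0.111 was measured at its start farthest upstream, whereas its peaks lay at another start, where CpG content was not measured. At *B930059L03Rik* the peak edge was 773 and 613 bases from the start.

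Genes without a clone-like name, a group that includes symbols such as *D14Ertd670e* and *D5Ertd615e*, were open more often than the rest. Of 83 such genes, 14.5% (8.47% to 23.6%) were open in the control female list and 21.7% (14.2% to 31.7%) in the VEDS male list, against 5.48% and 10.7% of the others. Of these, 11 were open in both lists, 7 in the VEDS male list only, 1 (*D14Ertd670e*) in the control female list only and 64 in neither. The *D14Ertd670e* peak had 7 fragments at rank 80.5, and its edge lay 851 bases from the start.

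The nuclear RNAs *Malat1*, which gathers at splicing speckles, and *Neat1*, the scaffold of paraspeckles, are neighbors on chromosome 19. *Malat1* had a fold enrichment of 9.34 in the control female list (34 fragments, rank 11.5) and 9.01 in the VEDS male list (76 fragments, rank 9.10). Its summits lay 1013 and 960 bases upstream of the nearest annotated start, and not on it. *Neat1* had a lower fold enrichment, 4.71 (29 fragments, rank 44.7) and 5.53 (79 fragments, rank 17.8), with summits 56 and 4 bases upstream of its start. In neither list did these abundant RNAs have the strongest lincRNA promoter peaks.

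The host genes of small nucleolar RNAs, which guide ribosomal RNA modification, had peaks on their starts. *Snhg6* had a fold enrichment of 9.33 (13 fragments, rank 33.9) in the control female list and 20.3 (62 fragments, rank 3.71) in the VEDS male list. *Snhg12* stood at 12.4 (rank 9.87) and 13.5 (rank 10.3). *Snhg20* had a peak in the VEDS male list only, at 8.85 (rank 27.1).

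*Trp53cor1* (lincRNA-p21), a p53 target 11797 bases from the start of *Cdkn1a*, had fold enrichments of 7.56 (15 fragments, rank 43.7) and 11.3 (48 fragments, rank 14.6). *Lncpint*, also a p53 target, had 7.17 and 7.40 at ranks of 30.4 and 17.7, with the summit 490 bases upstream in both lists. *Lockd*, next to the cell cycle inhibitor gene *Cdkn1b*, had 8.58 and 9.10 at ranks of 28.7 and 17.7. *Dubr*, known from myoblast differentiation, had 9.38 and 15.3 at ranks of 27.6 and 7.41. The other named genes open in both, besides *Carmn*, were *Smkr-ps* (7.68 and 8.97) and *Tmem250-ps* (9.64 and 8.91), which carry pseudogene names but the lincRNA type.

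Among cardiovascular lincRNA genes, *Carmn*, which is enriched in smooth muscle cells and lies beside the microRNA genes *Mir143* and *Mir145*, was open in both lists. Its peaks lay on the start, with summits 32 and 43 bases upstream, fold enrichments of 8.32 (39 fragments) and 8.25 (100 fragments) and ranks of 10.8 and 5.71. The adjacent *Bvht* (Braveheart), known from cardiac lineage commitment, had a peak in the VEDS male list only, at a fold enrichment of 2.92 and rank 81.6. *Chaer1* and *Miat*, which have been studied in the heart, had no peak in either long list.

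Other well-known genes were open in the VEDS male list alone. *Meg3*, an imprinted gene, had a fold enrichment of 5.37 at rank 73.9. *Pvt1*, beside *Myc*, had 6.53 at rank 56.9. *Mir155hg* had 6.04 at rank 67.0. *Mir17hg* and *Mir670hg* had stronger peaks, at 8.90 (rank 31.0) and 10.9 (rank 28.8). Summits in the control female list had a median of 14 fragments and those in the VEDS male list 22, and the part of this difference in the result was not tested. Immune markers had a peak at 0 of 4 promoters in both long lists.

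No peak was found in a long list at the other 64 named genes. These include *H19*, an imprinted fetal gene, *Hotair* of the *Hoxc* cluster, the neural genes *Rmst*, *Pantr1*, *Mir9-3hg*, *Mir124a-1hg* and *Mir124-2hg*, and the imprinted *Mirg*. All 18 genes of the *Platr* series, named for pluripotent cells, were among them. Of all 4536 intergenic lincRNA genes, 4033 had no peak in either long list, so nothing particular to these genes was read from its absence.

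**Figure D5:**
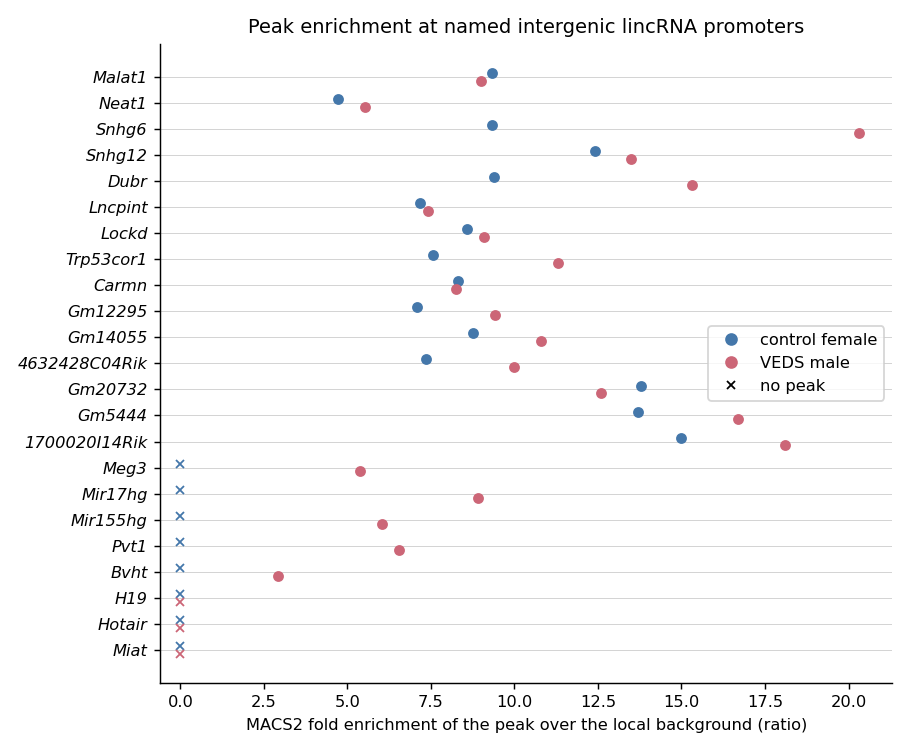
Fold enrichment of the promoter peak over the local background of its own library (x axis, ratio) for 23 named intergenic lincRNA genes in the control female (blue) and VEDS male (red) lists, with crosses at 0 where no peak was listed. *Snhg6* reaches 20.3 in the VEDS male list, whereas *Meg3*, *Mir17hg*, *Mir155hg*, *Pvt1* and *Bvht* have a VEDS male value only. Fold enrichments depend on the depth of a library and were not compared between libraries.

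Host genes of microRNAs were open more often than other intergenic lincRNA genes. Of 56 intergenic lincRNA genes with a microRNA gene inside them on the same strand, 17.9% (10.0% to 29.8%) were open in the control female list and 33.9% (22.9% to 47.0%) in the VEDS male list, against 5.49% (4.86% to 6.20%) and 10.6% (9.78% to 11.6%) of those without one. Besides *Gm20732*, *6720427I07Rik*, host of a *let-7* cluster, was among the stronger ones, at ranks of 11.7 and 4.40. *Gm49317*, which contains *Mir100* and *Mir125b-1*, had ranks of 66.5 and 37.4, and *Gm28653*, with the muscle microRNA genes *Mir206* and *Mir133b*, 61.4 and 37.7.

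The members nearest to vascular regulator genes were also examined. The list held 55 genes, namely transcription factors and signaling genes of the vessel wall and *Col3a1*. Of these, 28 were the nearest coding gene of a total of 70 intergenic lincRNA genes. Of the 70, 3 were open in both lists and 8 in the VEDS male list only. *Gm12295*, 95809 bases from the start of *Myocd*, the coactivator of the smooth muscle contractile program, had fold enrichments of 7.09 (17 fragments, rank 43.4) and 9.41 (48 fragments, rank 18.0), with summits 192 and 178 bases upstream. *Gm14055*, 171859 bases from the Notch ligand gene *Jag1*, had 8.76 and 10.8 at ranks of 37.9 and 30.8, with peak edges 863 and 847 bases from its start. *4632428C04Rik*, 55717 bases from the Notch target *Hes1*, had 7.34 and 10.0 at ranks of 45.6 and 15.4.

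The 8 open in the VEDS male list only were *Gm14064* and *Gm28214* near *Jag1*, *Gm5860* and *Gm11264* near *Nfib*, *Gm12506* near *Klf4*, *Gm44946* near *Nr2f2*, *2310067P03Rik* near *Mef2c* and *Gm48912* near *Bmp4*. *Gm5860* and *Gm11264* start from opposite strands and share 1 peak. The ranks of these peaks ran from 46.1 for *Gm48912* to 83.6 for *Gm12506* and *Gm28214*, so all lay in or near the weaker part of the list. The counts of 3 and 11 of 70 genes in the control female and VEDS male lists stand beside shares of 5.64% and 10.9% of all intergenic lincRNA genes, and nothing particular to regulators was read from them.

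Openness also went with the state of the neighboring gene and was lowest more than 100 kb from a coding start. When the nearest coding gene was open, 7.26% (6.27% to 8.39%) of the lincRNA genes were open in the control female list, against 4.0% (3.27% to 4.89%) when it was not. In the VEDS male list these shares were 13.2% (12% to 14.5%) and 6.92% (5.79% to 8.25%). With the neighbor more than 25 kb away they were 6.39% and 3.13% in the control female list and 11.7% and 6.23% in the VEDS male list. Within 25 kb they were 10.1% (7.85% to 13.0%) and 6.90% (5.02% to 9.40%) in the control female list, with overlapping intervals. In the VEDS male list they were 18.3% (15.5% to 21.4%) and 9.14% (6.67% to 12.4%) within 25 kb. Genes more than 100 kb from a coding start were open in 3.02% and 6.15%, against 8.92% and 14.8% at 10 to 25 kb. The shares were 7.57% and 15.1% at 5 to 10 kb, 6.66% and 14.9% at 25 to 50 kb, and 6.72% and 12.7% at 50 to 100 kb. They thus did not fall steadily with distance. The number of exons made little difference, with 6.70% of genes of 1 exon and 5.52% of those with 3 or more exons open in the control female list.

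The strongest peaks without a counterpart were at other genes. In the VEDS male list alone the leading genes were *AC132253.9*, *Gm26576* and *AC091309.4*, at ranks of 16.9, 20.3 and 22.4 and fold enrichments of 13.7, 9.29 and 9.89. At *AC132253.9* 56.7% of the peak was masked as repeat, and at the others the peak edge lay 965 and 784 bases from the start. Among all genes, 11751 of the 11830 open in the control female list were open in both long lists. In the control female list alone, 7 intergenic lincRNA genes were open. The leading ones were *Gm7596*, with its summit 3 bases from the start and a fold enrichment of 8.44 (rank 40.4), and *Gm49797* and *Gm28382*, with 8 fragments each (ranks of 76.1 and 78.5).

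In the short lists 17 intergenic lincRNA genes had a peak. The control male list opened 6 genes (0.132%, 0.0606% to 0.288%), against 0.777% of all genes, and the VEDS female list 12 (0.265%, 0.151% to 0.462%), against 0.699% of all genes. Of the 17 genes, 14 were open in both long lists, and 1, *C920006O11Rik*, had a peak in all 4 lists, with fold enrichments of 9.84 and 12.2 in the long lists, 5.57 in control males and 6.46 in VEDS females. The peaks of the short lists had 4 to 9 fragments, apart from *Gm26917*. The overlap of short and long lists over all genes was not set beside these counts. Nothing particular to lincRNA genes was therefore read from the overlap.

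All 12 genes of the VEDS female list were open in both long lists. They were *Gm5444*, which had the highest fold enrichment (6.88, 9 fragments), *C920006O11Rik*, *D730045B01Rik*, *1700096K18Rik*, *BC002059*, *A230028O05Rik*, *E430024I08Rik*, *Gm30524*, *Gm32618*, *Gm32856*, *Gm43020* and *Gm45605*. In the control male list, *Gm26713*, *Gm37724* and *Gm47080* had peaks that were 100% masked as repeats, and *Gm37724* and *Gm47080* were open in no long list. *Gm36445* had a peak 792 bases from its start, with 6 fragments. *Gm26917* had 35 fragments at a fold enrichment of only 3.02 in the control male list, and 121 and 214 fragments at 2.90 and 2.32 in the long lists, so that its local background was high in each.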

How the data were processed

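ATAC-seq peaks were analyzed for 4 libraries of aortic nuclei from P60 mice, each made from 2 pooled animals with the 10x single-cell ATAC kit and treated in aggregate, without cell types. The authors aligned reads to mm10 (GRCm38), removed duplicates with cell barcodes and ran MACS2 on each library after correcting the Tn5 cut site. They stated that blacklisted regions were excluded. The aligner and peak threshold were not given in the sources used here, and the lowest deposited −log10 q was between 1.303 and 1.321. The deposited score was not used. The deposited fold enrichment, a ratio of summit fragments to local background 1 being added to each, was used only within a list, as were the deposited −log10 p and −log10 q. Fragments at the summit were recovered as the whole number that reproduced both fold and −log10 p within 0.001, for 99.3% to 99.9% of peaks per list. Total depth per library is unknown.

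TSSs came from GENCODE vM21. Every annotated transcript start of a lincRNA gene was kept if it was more than 5 kb from all protein-coding transcript starts, and a gene was open with a peak edge within 1 kb of a kept start. If several peaks qualified, that of highest −log10 q was used. Of the 4536 genes, 941 had more than 1 kept start, 185 lay within 1 kb of a start of another gene type and 164 inside a coding gene. Sequence features were taken at the kept start farthest upstream, and 11 motifs were searched on both strands. Shares have 95% Wilson intervals, and no test was run because each genotype and sex had 1 library. The steps were checked on simulated peaks.

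Named genes were those without a clone name, the 10 with the best ranks in both long lists, all with a peak in a short list, the 3 strongest in each long list alone, and those nearest to a listed vascular regulator. The genes and lists were chosen with earlier results of these data known. Python 3.11.15, numpy 2.4.6, pandas 2.3.3, scipy 1.17.1 and matplotlib 3.10.9 were used.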

Additional observations from a re-analysis of the deposited data

Results flagged for a closer look

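The share of open intergenic lincRNA promoters ran in opposite directions in the sexes. In females it was 5.38 percentage points lower in VEDS than in control (a VEDS minus control difference of -5.38), and in males 10.8 points higher. Each value compares 1 library with 1 library, and the difference was not tested. The lists behind these shares held 504 and 21176 peaks in VEDS and control females and 41444 and 1236 in VEDS and control males, so the share followed the length of the list in both sexes. The part of list length in the result was not tested.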

How the results depend on the processing

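The VEDS male share was above the control female share under all 12 alternatives, by 0.529 to 6.77 percentage points, and the smallest difference came with equal list size. There the shares were 5.64% and 6.17%, with 4.59% open in both lists. In the following, shares are given for the control female list, the VEDS male list and both lists in turn. With a −log10 q of at least 5 they were 4.37%, 9.55% and 4.30%, and with at least 10 they were 2.20%, 6.68% and 2.16%. With the TSS inside the peak they were 2.43%, 5.18% and 2.38%, with peak edges within 500 bp 4.56%, 8.88% and 4.48%, and within 2 kb 7.14%, 13.9% and 6.92%. In the short lists, the control male share became 0.0220% at a −log10 q of at least 5, 0 at 10 and 0.0441% with the TSS inside the peak, and the VEDS female share 0.0441%, 0 and 0.110%. All other alternatives stayed within the interval of the reported share. These were the summit within 1 kb, the gene's 5′ end only, all starts more than 5 kb away, a distance of 10 kb, no repeat peaks and no neighboring noncoding starts, and in the short lists the other peak distances. No paired analysis was possible because no result comes from a test. The VEDS minus control differences within each sex, 1 library against 1, are given above. With 1 library for each genotype and sex, no replicate could be left out.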

Other observations

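The share of open intergenic lincRNA genes varied between chromosomes, a pattern noticed after the values were seen. In the VEDS male list the share ran from 6.64% on chromosome 3 (16 of 241 genes, 4.13% to 10.5%) to 20.4% on chromosome 17 (41 of 201 genes, 15.4% to 26.5%). In the control female list these chromosomes had 2.49% (1.15% to 5.32%) and 9.95% (6.53% to 14.9%). Shares of all genes per chromosome were not set beside these, so nothing particular to lincRNA promoters was read from them. *Gm5165*, with the strongest peak of these genes in the VEDS male list, has the zinc finger gene *Zfp97* as its nearest coding gene, 113457 bases away. Of the 143 genes whose nearest coding gene has a *Zfp* name, 11.2% (7.01% to 17.4%) were open in the control female and 15.4% (10.4% to 22.2%) in the VEDS male list, against 5.46% (4.83% to 6.18%) and 10.8% (9.91% to 11.7%) of the others. The intervals were apart in the control female list and overlapped in the VEDS male list.

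Openness did not follow the order of the annotation's support levels throughout. Genes with a transcript of support level 1, the best supported by RNA evidence, were open in 6.55% and 13.1%, those with a best level of 2 or 3 in 7.42% and 11.6%, those with 4 or 5 in 3.38% and 7.11%, and those with no level in 4.74% and 10.2%. Genes whose start lies in a masked repeat were open in 3.15% and 6.61%, against 6.33% and 12.1% of the others.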
